A study of Sus scrofa with 34 samples.

Results

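The 10 genes described here encode proteins of the lipid droplet and of its lipolysis: the coat proteins *PLIN2*, *PLIN3*, *PLIN4* and *PLIN5*, the droplet fusion proteins *CIDEC* and *CIDEB*, and the lipolysis genes *PNPLA2*, *ABHD5*, *G0S2* and *MGLL*. They were chosen by gene symbol, and all 10 were found among the 25880 genes counted in the liver and the ileum of the piglets. In the liver, 5 of the 10 were higher in piglets fed oxidized oil (OO) than in control piglets, namely *PLIN2*, *PLIN5*, *G0S2*, *MGLL* and *ABHD5*. Over all genes tested, 1.37% were called higher there. None of the 10 in the liver passed the test between diets with and without the phytogenic feed additive (PFA). The same holds for the 8 that could be tested in the ileum.

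Lipid droplets store triacylglycerol in a core that is covered by a phospholipid monolayer and by coat proteins. Perilipins (PLIN) sit on that surface and limit or direct the access of lipases, and CIDE proteins pass lipid between droplets in contact. Lipolysis starts with adipose triglyceride lipase (*PNPLA2*), which is activated by its cofactor *ABHD5* (CGI-58) and inhibited by *G0S2*, and it ends with monoacylglycerol lipase (*MGLL*). In the liver, many genes of this group are known targets of fatty acid-activated nuclear receptors of the PPAR family.

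The animals were weaned crossbred piglets of both sexes that received one of 4 diets for 28 days: a basal diet (control), the basal diet with PFA, a product based on essential oils, and both of these with heated, oxidized rapeseed oil (OO and OO + PFA). RNA from the liver was sequenced for 6 piglets per diet, and RNA from the middle ileum for 5 piglets of the control diet and 5 of the PFA diet, all of which were also among the liver samples. Each diet was fed in a single pen, so diet and pen cannot be told apart, and the oxidized oil diets also differed from the others in their formulation and oil content, so oxidation and added oil cannot be told apart either. The library of OO + PFA pig 77 was left out of the liver comparisons, as the study left it out for suspected RNA degradation, so that 5 OO + PFA piglets remained. Hepatocyte markers were present in every liver group (summed level 80428 to 191930 CPM, the count scaled to library size), and 7 enterocyte markers summed to 257 to 916 CPM there, mostly from *ANPEP*, which the liver also expresses, and *APOA4*, while *FABP2*, *SI* and *FABP6* stayed at 3 counts or fewer. In the ileum the enterocyte markers summed to 17105 to 33040 CPM, and the 7 hepatocyte markers to 726 to 1816 CPM, nearly all of it *CPS1*, which the intestine also expresses (725 to 1815 CPM), while *TTR* was at 0 counts and *ALB* at 5 counts or fewer. Libraries held 18738055 to 42446834 read pairs on genes. In such bulk samples, fewer cells of a type and less RNA per cell cannot be told apart.

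The 10 genes lie on 5 chromosomes of Sscrofa11.1 (positions from RefSeq). *PLIN2* (ENSSSCG00000035863) is at chr1:203683867-203709277, *CIDEB* at chr7:74982941-74985776 and *G0S2* (ENSSSCG00000015617) at chr9:133287065-133288066 on the minus strand. On chromosome 2, *PNPLA2* (ENSSSCG00000012841) is at chr2:513065-517962 and *PLIN3* at chr2:73970149-73995314, and *PLIN5* (ENSSSCG00000013513) at chr2:74304613-74314314 lies 4309 bases from *PLIN4* at chr2:74318624-74331920. On chromosome 13 are *ABHD5* (ENSSSCG00000011297) at chr13:27006331-27053760, *CIDEC* at chr13:66141836-66149801 on the minus strand and *MGLL* (ENSSSCG00000024134) at chr13:72480395-72568964. Those without a named strand are on the plus strand.

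The gene models range from 44.9% GC in the exons of *ABHD5* and 47.6% in *PLIN2* to 65.5% in *PLIN5*, 65.7% in *G0S2* and 68.2% in *PNPLA2*. The 250 bases before the annotated gene start of 3 genes are shown because *PLIN2* had the smallest adjusted p of the 10 genes in the oxidized oil comparison, *G0S2* the largest fold and *PNPLA2* the highest GC content. They lie at chr1:203683617-203683866 (plus strand, 45.6% GC), chr9:133288067-133288316 (minus strand, 77.2% GC) and chr2:512815-513064 (plus strand, 80.0% GC), against a median of 57.6% GC over the same window of 19559 protein-coding genes. Each is printed 5′ to 3′ on the strand of its gene.
PLIN2: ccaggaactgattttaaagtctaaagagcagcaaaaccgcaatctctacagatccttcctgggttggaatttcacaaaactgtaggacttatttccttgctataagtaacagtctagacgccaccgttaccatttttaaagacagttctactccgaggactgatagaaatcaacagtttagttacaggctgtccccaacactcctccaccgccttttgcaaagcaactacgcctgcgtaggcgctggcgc
G0S2: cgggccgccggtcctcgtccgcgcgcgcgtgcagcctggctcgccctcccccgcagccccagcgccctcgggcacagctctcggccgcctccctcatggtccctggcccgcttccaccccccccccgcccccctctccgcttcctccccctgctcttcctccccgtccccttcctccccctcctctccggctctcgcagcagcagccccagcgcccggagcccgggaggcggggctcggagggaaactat
PNPLA2: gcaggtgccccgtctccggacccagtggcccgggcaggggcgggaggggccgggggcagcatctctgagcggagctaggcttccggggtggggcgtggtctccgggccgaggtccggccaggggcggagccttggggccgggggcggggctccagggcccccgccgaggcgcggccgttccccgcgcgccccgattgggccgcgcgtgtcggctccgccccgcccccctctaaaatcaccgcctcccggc
No base is in capitals because the repeat searched next was not found in these stretches.

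The direct repeat AGGTCANAGGTCA, a repeat of AGGTCA with 1 base between and the form of site bound by PPAR with its partner RXR, was searched on both strands from 2000 bases before to 500 bases after each gene start. It was found in none of the 10 windows and in 0.245% of the 19559 windows. The looser form AGGNCANAGGNCA, which includes the first, was found in 2.29% of all windows and in 1 of the 10, that of *ABHD5*, on the strand of the gene. The match starts 119 bases before the gene start at chr13:27006212-27006224 (plus strand) and is shown in capitals with 8 bases on each side. On that side the gene *ANO10* lies 168 bases from *ABHD5*, so the match falls between them. A match is a string of letters and not a tested site, and a window without one only lacks these letters.
ABHD5: gcgaggtcAGGCCAGAGGACAgtcgacgc

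Without oxidized oil in the diet, *CIDEB* and *ABHD5* were the most abundant of the 10 in the liver when levels are expressed per kilobase of exon. In control livers *CIDEB*, which takes part in droplet growth and in loading of lipoproteins in hepatocytes, stood at 95.1 ± 13.1 CPM per kb (SD, n = 6) and *ABHD5* at 36.3 ± 11.7. The next 6 genes lay close together, from *PLIN3* at 6.95 ± 0.981 to *PNPLA2* at 4.64 ± 1.46 CPM per kb, with *PLIN5*, *CIDEC*, *G0S2* and *PLIN2* between them, and neighbours in that order differed by less than their SD. *MGLL* at 1.23 ± 0.320 and *PLIN4* at 0.934 ± 0.248 CPM per kb were the lowest. In OO livers the order was *CIDEB* (86.0 ± 13.2), *ABHD5* (77.2 ± 17.9), *G0S2* (40.2 ± 36.8), *PLIN2* (18.5 ± 4.33) and *PLIN5* (16.2 ± 8.91 CPM per kb, n = 6), with *PLIN4* still lowest at 1.21 ± 0.360.

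**Figure D1:**
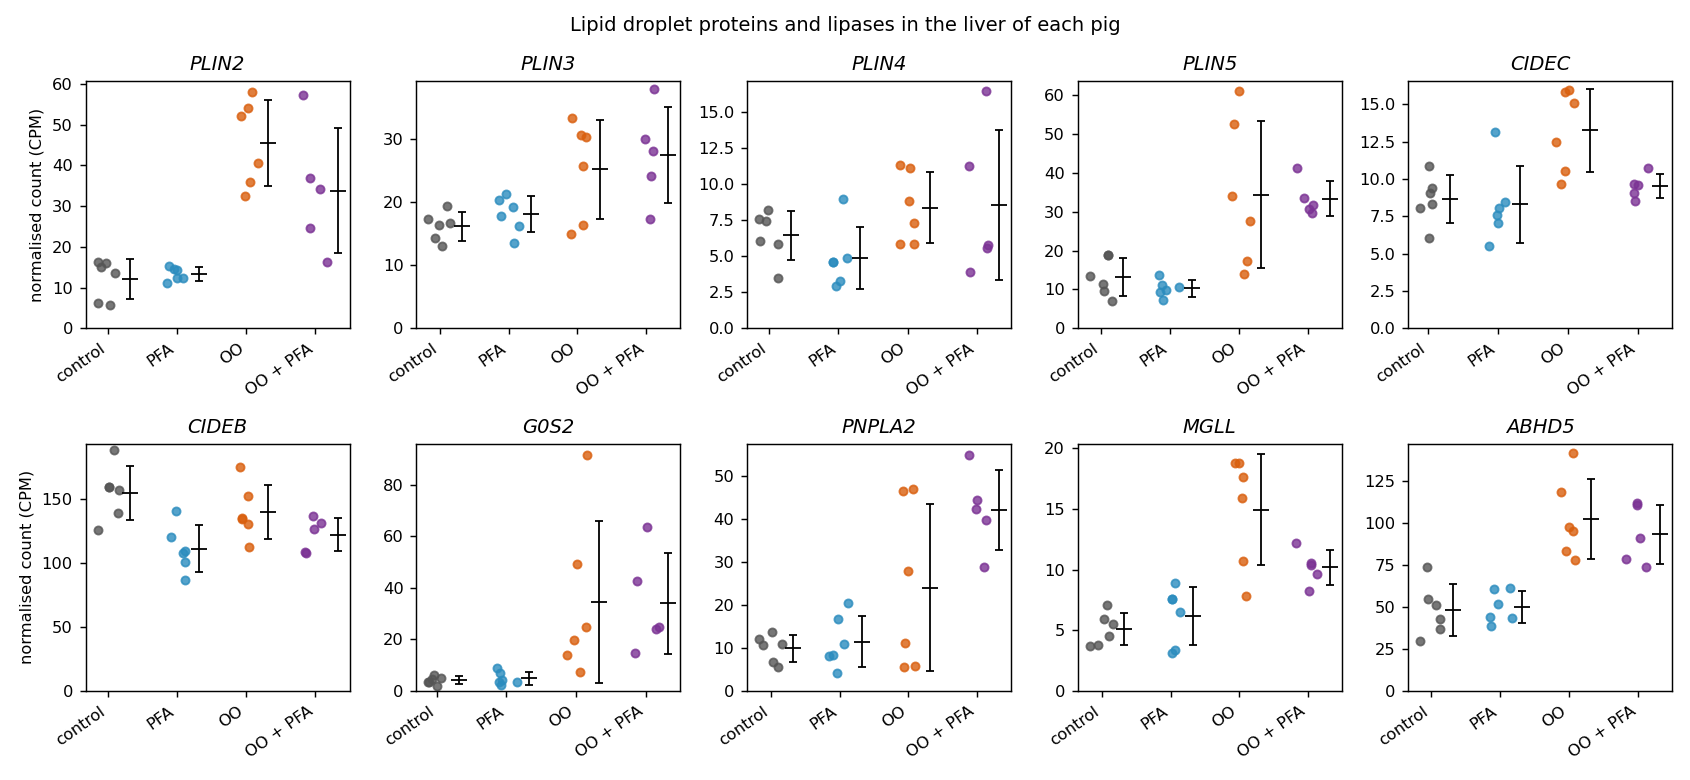
Normalised count in CPM (linear axes from 0) of each of the 10 genes in 23 livers by diet; each point is a piglet and the bars give mean ± SD (n = 6, and 5 for OO + PFA). *PLIN2*, *G0S2*, *MGLL* and *ABHD5* separate OO from control without overlap, and *PNPLA2* spreads from 5.52 to 47.0 CPM within OO.

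Oxidized oil against control asks what the challenge changed without the additive. With edgeR's two-sided quasi-likelihood test and Benjamini-Hochberg adjustment over 13831 genes, 5 of the 10 genes passed an adjusted p of 0.05, all of them higher in OO, and 8 had an unadjusted p under 0.05. Over all genes tested, 2.71% passed, 1.37% higher and 1.34% lower, and 2956 of the 13831 had an unadjusted p under 0.05. With DESeq2's size factors in place of TMM, 185 of 459 calls were higher, against 190 of 375. The median log2 fold change was 1.17 over the 10 genes and 0.06 over all genes tested.

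Among the coat proteins, *PLIN2*, which covers droplets in most cell types, gave the clearest rise. Its level was 5.70 at lowest, 14.2 at the median and 16.2 CPM at highest in control livers, and 32.5, 46.3 and 58.1 CPM in OO livers. The lowest OO piglet thus stood above the highest control piglet. The log2 fold change was 1.91 ± 0.28 (SE, adjusted p = 2.19e-04), a 3.77-fold rise. *PLIN5*, the perilipin of oxidative tissues that brings droplets to mitochondria, ranged from 7.08 (median 12.4) to 19.0 CPM in control and from 14.1 (median 30.7) to 60.9 CPM in OO. The groups overlapped, since OO pigs 97 and 74 had 14.1 and 17.3 CPM, and the log2 fold change of 1.38 ± 0.29 passed the test (adjusted p = 0.0124), but not in a fit of these 2 diets alone (adjusted p = 0.0852). *PLIN3*, a perilipin that moves from the cytosol to new droplets, measured 16.2 ± 2.29 CPM in control and 25.3 ± 7.85 in OO (log2 fold change 0.64 ± 0.19, adjusted p = 0.0715). *PLIN4* measured 6.45 ± 1.71 and 8.37 ± 2.48 CPM (0.37 ± 0.31, adjusted p = 0.516), and neither gene passed. *PLIN4* overlaps *HDGFL2* on the opposite strand, and the strand setting of the counting is not given in the sources used here.

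Neither droplet fusion gene passed the threshold. *CIDEC*, whose protein drives the growth of large droplets, ranged from 6.08 to 10.9 CPM in control and from 9.64 to 16.0 CPM in OO, with 4 of 6 OO piglets above the highest control (log2 fold change 0.61 ± 0.18, adjusted p = 0.0597). DESeq2 called *CIDEC* (adjusted p = 0.0301) and *PLIN3* (adjusted p = 0.0402) on the same counts, for 7 of 10 in all. Over all genes it called 1079, against 375 with edgeR. *CIDEB* measured 155 ± 21.3 CPM in control and 140 ± 21.4 in OO (-0.15 ± 0.12, adjusted p = 0.525). Both genes overlap others on the opposite strand, *CIDEC* a gene listed as LOC106505669 and *CIDEB* the genes *LTB4R2* and *NOP9*.

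On the lipolysis side, the inhibitor and the activator of *PNPLA2* both rose. *G0S2* was at 2.07 (median 4.24) to 6.14 CPM in control livers and at 7.18 (median 22.3) to 91.5 CPM in OO livers. The groups did not overlap, and the OO livers spread widely, with a coefficient of variation of 91.5%. The log2 fold change was 3.03 ± 0.51 (adjusted p = 0.00127), or 8.17-fold, and was larger than that of the other 9 genes. *ABHD5* ranged from 29.6 (median 47.1) to 73.5 CPM in control and from 78.0 (median 96.2) to 142 CPM in OO, again without overlap (1.09 ± 0.19, adjusted p = 0.00212). *MGLL* ranged from 3.72 (median 5.03) to 7.12 CPM in control and from 7.84 (median 16.8) to 18.8 CPM in OO, also without overlap (1.55 ± 0.25, adjusted p = 0.00102). For *PNPLA2* itself the control livers lay between 5.65 and 13.8 CPM, and the OO livers were at 5.52, 5.88, 11.097, 27.8, 46.5 and 47.0 CPM, so that 3 of 6 lay above the highest control. With that spread its log2 fold change of 1.26 ± 0.45 did not pass (adjusted p = 0.116). In all, 4 of the 10 genes were separated without overlap, each higher in OO, against 0.781% of all genes tested.

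*MGLL* was one of the genes the study also measured by qPCR, and its primers show which part of the transcript that assay reads. The forward primer lies at chr13:72564567-72564586 (plus strand) and the reverse primer at chr13:72566492-72566511 (minus strand), in different coding exons of *MGLL* that are present in 4 of 4 RefSeq transcripts. *MGLL* overlaps *ABTB1* on the opposite strand, and whether the counted reads come from both could not be settled here.
MGLL forward primer: gagccaggacaagacactga
MGLL reverse primer: tcctttgggagacccatgta

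OO + PFA against PFA asks the same question in piglets that received the additive, and it shares no animal with the first comparison. Again 5 of the 10 genes were called, all higher with oil, against 1.58% of the 13831 genes (1.24% higher and 0.333% lower). *PLIN2*, *PLIN5*, *G0S2* and *ABHD5* were called in both comparisons, which come from 1 fit with a shared estimate of the spread. How many of all genes were called in both was not counted. *PNPLA2* joined them here, and *MGLL* did not pass.

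*PLIN2* was at 11.05 (median 13.3) to 15.4 CPM in PFA livers and at 16.4, 24.5, 34.1, 36.8 and 57.2 CPM in the 5 OO + PFA livers (log2 fold change 1.34 ± 0.28, adjusted p = 0.0142). *PLIN5* was at 7.17 (median 10.1) to 13.8 CPM in PFA livers and at 29.6, 30.8, 31.7, 33.6 and 41.1 CPM with oil (1.70 ± 0.31, adjusted p = 0.00409). The coefficient of variation of *PLIN5* was 13.7% in OO + PFA livers and 54.9% in OO livers, and the order turned after the GC correction described below (20.7% and 15.4%). *G0S2* was at 2.33 (median 3.88) to 8.96 CPM in PFA livers and at 14.9, 24.02, 24.7, 42.6 and 63.8 CPM with oil (2.79 ± 0.51, adjusted p = 0.00469). *PNPLA2* was at 4.26 (median 9.63) to 20.3 CPM in PFA livers and at 28.8, 39.8, 42.3, 44.4 and 54.9 CPM with oil (1.87 ± 0.47, adjusted p = 0.0447). *ABHD5* was at 38.6 (median 47.9) to 61.1 CPM in PFA livers, while its lowest OO + PFA liver had 73.8 CPM and its highest 112 CPM (0.90 ± 0.20, adjusted p = 0.0212). These 5 genes did not overlap between the groups, a separation in the higher direction that 4.69% of all genes tested showed with 5 against 6 livers. The call of *PNPLA2* was lost without any 1 of 8 of the 11 piglets in turn (adjusted p up to 0.113). That of *PLIN2* was lost without the OO + PFA piglet with the highest level (log2 fold change 1.07, adjusted p = 0.0665), and that of *ABHD5* without the same piglet (adjusted p = 0.0675), OO + PFA pig 79 (0.0609) or PFA pig 107 (0.0555).

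The other 5 genes did not pass. *MGLL* was at 3.16 to 8.88 CPM in PFA livers and at 8.26, 9.62, 10.4, 10.6 and 12.2 CPM with oil, with 4 of 5 above the highest PFA liver (0.72 ± 0.26, adjusted p = 0.123). *PLIN3* gave 0.61 ± 0.20 (adjusted p = 0.1096), *PLIN4* 0.81 ± 0.33 (0.152), *CIDEC* 0.20 ± 0.19 (0.533) and *CIDEB* 0.14 ± 0.13 (0.530).

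**Figure D2:**
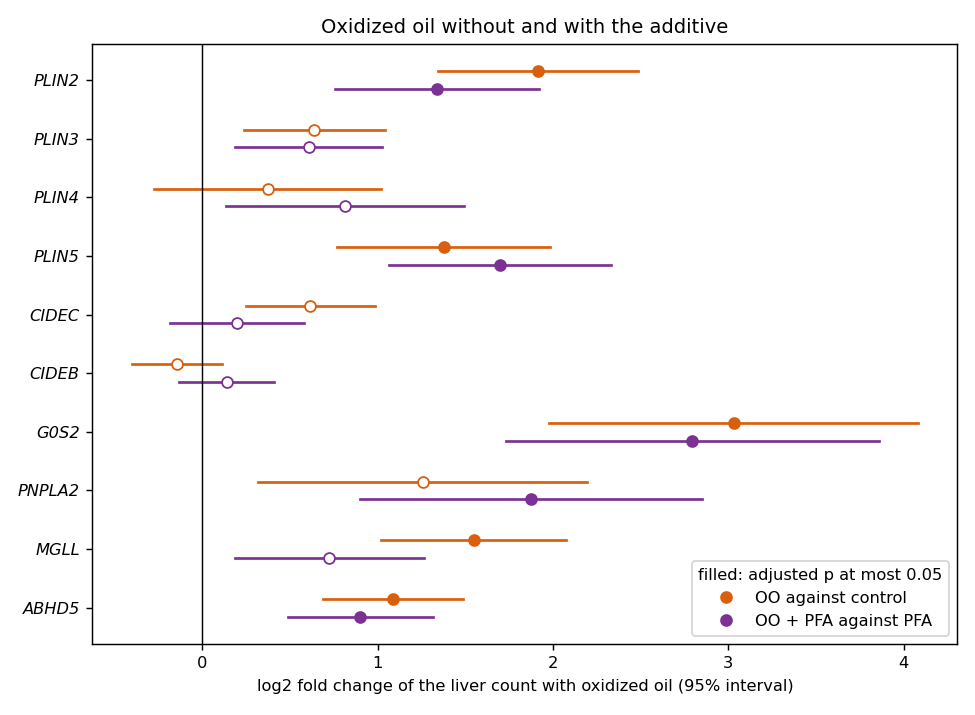
Log2 fold change in the liver with 95% interval for OO against control and for OO + PFA against PFA (shared estimate of the spread over 23 livers); filled points passed an adjusted p of 0.05. The interval of *MGLL* was 1.02 to 2.07 without and 0.18 to 1.26 with the additive.

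The effect of the additive itself was asked with and without oil. For PFA against control, edgeR called 0 of the 10 genes and 0% of all genes tested, and DESeq2 called 0 of the 10 and 43 of all genes. At an unadjusted p under 0.05, 1 of the 10 was found, against 1522 of 13831 genes. This was *CIDEB*, at 111 ± 18.3 CPM in PFA livers against 155 ± 21.3 in control livers (log2 fold change -0.48 ± 0.13, adjusted p = 0.270), with 0 of 6 PFA livers above the control mean. For OO + PFA against OO, edgeR and DESeq2 likewise called 0 of the 10, edgeR 0% and DESeq2 31 of all genes. Of the 13831 genes, 1176 had an unadjusted p under 0.05, among them 2 of the 10. These were *CIDEC*, at 9.51 ± 0.810 against 13.3 ± 2.78 CPM (-0.48 ± 0.19, adjusted p = 0.504), and *MGLL*, at 10.2 ± 1.44 against 15.0 ± 4.61 CPM (-0.55 ± 0.26, adjusted p = 0.586). *PLIN2* gave -0.43 (95% interval -1.01 to 0.15) and *G0S2* -0.01 (-1.02 to 1.00), and both intervals include 0. *PNPLA2* gave 0.81 (-0.15 to 1.77). The test of whether the oil effect differed with the additive, an interaction term, called 0 of the 10 with edgeR and DESeq2, and 0% of all genes with edgeR against 150 genes with DESeq2. The only gene of the 10 with an unadjusted p under 0.05 in it was *MGLL*, at -0.82 ± 0.36 (adjusted p = 0.326), as 1881 of 13831 genes had. No gene of the 10 separated OO + PFA from OO without overlap, as 0.333% of all genes did upwards and 0.441% downwards. Across the 4 diets in 1 test, 6 of the 10 differed (the 5 of OO against control and *PNPLA2*), against 3.66% of all genes.

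Library composition moved with several of these genes. For each library, the slope of its log2 level, relative to the mean of its tissue, on the GC content of the genes was taken as its GC slope. It ranged from -0.23 to 0.07 log2 units per 10 points of GC in control livers, from -0.50 to 0.03 in PFA, from -0.41 to 0.39 in OO and from 0.00 to 0.45 in OO + PFA. In OO, pigs 97, 74 and 88 had negative slopes and the other 3 positive ones, and the first 3 had the 3 lowest values of *PNPLA2*. OO pigs 97 and 74 were also the lowest for *PLIN5*, *G0S2*, *PLIN3* and *MGLL*, and they were the highest for *ABHD5*, the gene with the lowest GC content.

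**Figure D3:**
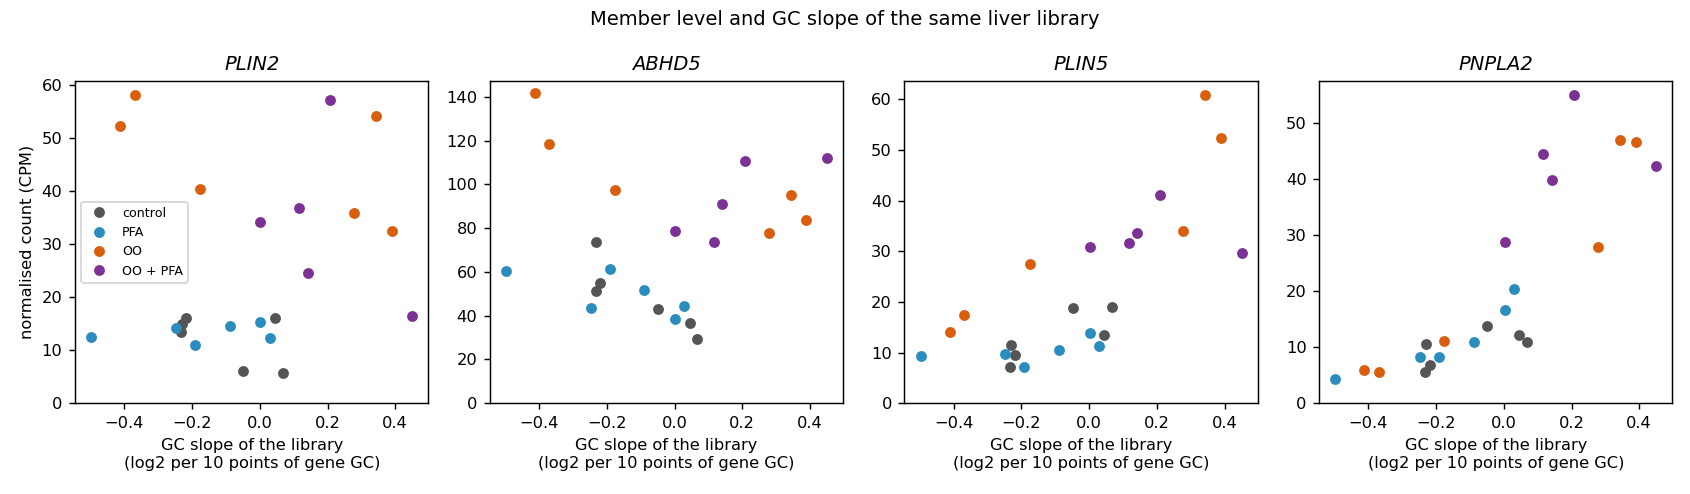
CPM of 4 genes (linear axes from 0) against the GC slope of the same liver library, 23 libraries coloured by diet. *PNPLA2* was lowest, 4.26 CPM, in the PFA liver with the lowest slope, and for *PLIN2* each oil-fed liver (16.4 CPM or more) lay above each of the others (16.2 CPM or less).

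When a smooth curve on gene GC was removed from each library, *PLIN2* and *ABHD5* hardly moved in OO against control, to a log2 fold change of 1.95 and 1.11. *G0S2* went from 3.03 to 2.32, *PLIN5* from 1.38 to 0.87 and *MGLL* from 1.55 to 1.35, and all 5 stayed called. *PNPLA2* went from 1.26 to 0.34 (adjusted p = 0.270), and its coefficient of variation among OO livers fell from 81.1% to 30.5%. That of *PLIN5* fell from 54.9% to 15.4% among OO livers and went from 13.7% to 20.7% among OO + PFA livers. In OO + PFA against PFA, *PNPLA2* went from 1.87 to 1.02 (adjusted p = 0.00412), *G0S2* from 2.79 to 2.10 and *PLIN5* from 1.70 to 0.94, and these stayed called too. After correction *PLIN5* no longer overlapped between OO (23.4 to 33.9 CPM) and control (10.3 to 21.2 CPM). The share of all genes without overlap after correction was not counted. *PLIN3* (0.50, adjusted p = 0.0323) and *CIDEC* (0.60, adjusted p = 0.0430) also passed in OO against control, for 7 of 10. Over all genes the corrected fit called 810 there, against 375 without correction. The correction also removes any change by diet that follows GC content, and the part of library composition in the uncorrected values was not tested.

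**Figure D4:**
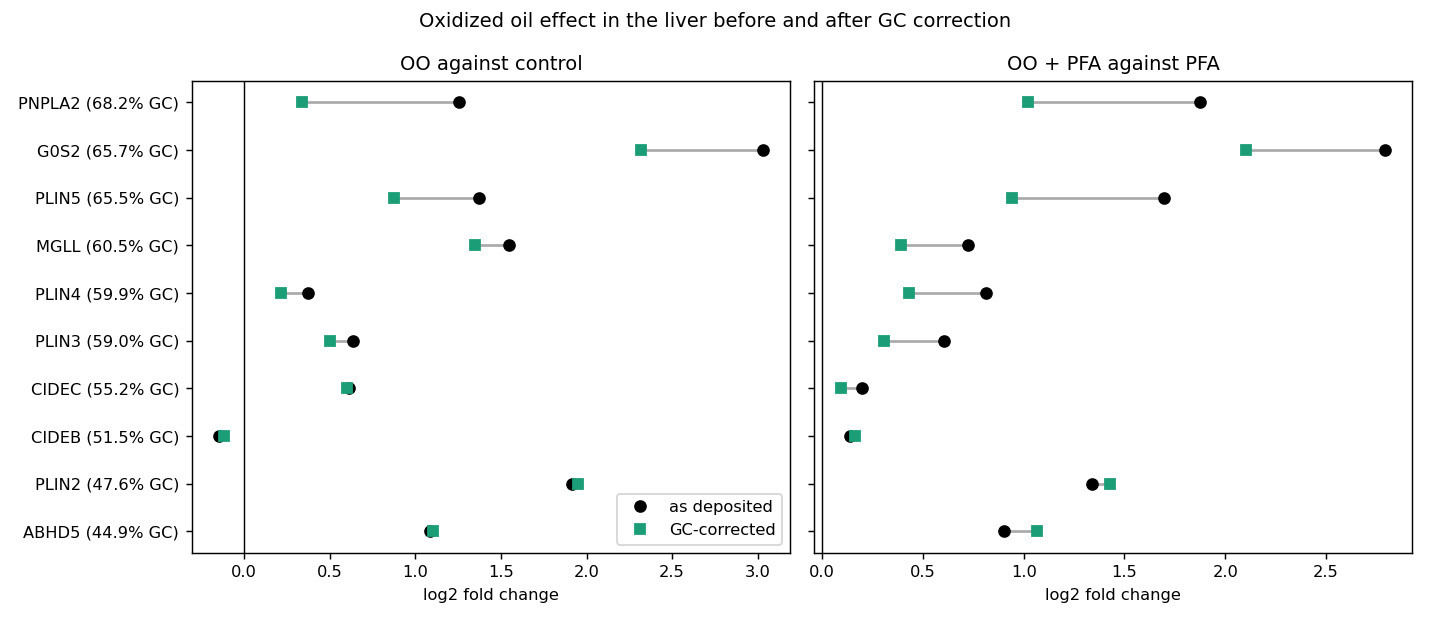
Log2 fold change of each gene before (circles) and after (squares) GC correction for both oil comparisons, genes ordered by exon GC content. The 3 genes above 65% GC shift most, *PNPLA2* from 1.26 to 0.34 and from 1.87 to 1.02, while *PLIN2* stays near 1.9 in OO against control.

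Liver libraries carried titles in 2 forms, PigLiv and PL, whose meaning the labels do not give. PL titles also end in 1 or 2, again without a stated meaning. Those of control livers end in 1, those of PFA and OO + PFA livers in 2, and those of OO livers in either. The part of this ending in the PL values was not tested. Within PigLiv titles (3 OO and 4 control livers), the log2 fold change of OO against control was 1.49 for *PLIN2*, 1.75 for *PLIN5*, 2.96 for *G0S2*, 1.51 for *MGLL* and 0.80 for *ABHD5*, and the first 4 were called. Within PL titles (3 OO and 2 control livers) it was 3.01, 0.79, 2.92, 1.71 and 1.59, and *PLIN2* alone was called. The larger PL value of *PLIN2* goes with its level in control pigs 80 and 85, 5.70 and 6.12 CPM, against 13.4 to 16.2 CPM in the other 4 control livers. For OO + PFA against PFA, PL titles left 1 OO + PFA liver, so the values there rest on that liver and on the assumption that it varies like the other PL livers. The log2 fold change was 1.99 for *PLIN2*, which passed only under that assumption, 1.85 for *PLIN5*, 3.67 for *G0S2*, 2.35 for *PNPLA2* and 1.11 for *ABHD5*. Within PigLiv titles these were 1.17, 1.76, 2.46, 1.68 and 0.86, and *PLIN5* alone was called.

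Few other genes of the pathway passed beside the 10. Of 11 other lipid droplet proteins, 1 was higher in OO than in control, *PLIN1*, the perilipin best known from adipocytes, at 1.21 ± 0.50 CPM in control and 4.23 ± 3.01 in OO (log2 fold change 1.79 ± 0.37, adjusted p = 0.00868). The median log2 fold change of these 11 was -0.07. Of 11 genes of triacylglycerol synthesis, 1 was higher, *GPAT3*, an acyltransferase of its first step (0.98 ± 0.25, adjusted p = 0.0353), and the median was 0.01. Of 9 other lipases and cofactors tested, 0 passed with edgeR in OO against control, where 4 had an unadjusted p under 0.05, and 1 passed in OO + PFA against PFA, *LIPG*, endothelial lipase, at 18.9 ± 5.76 CPM in PFA and 78.97 ± 48.1 with oil (2.06 ± 0.29, adjusted p = 3.69e-04). In OO against control *LIPG* gave 0.83 ± 0.28 (adjusted p = 0.0945). In OO + PFA against PFA edgeR called 0 of the 11 droplet proteins (2 at an unadjusted p under 0.05) and 0 of the 11 synthesis genes (3 at an unadjusted p under 0.05). Of all 13831 genes, 3248 had an unadjusted p under 0.05 there and 2956 in OO against control.

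Markers of other cell types were set beside these values. The 7 adipocyte markers measured summed to 4.9 to 14.2 CPM in control livers, 5.8 to 28.5 in PFA, 6.5 to 55.1 in OO and 25.6 to 37.7 in OO + PFA, so the sum moved with oil. Of these, *CFD* made up most, at 5.34 ± 3.60 CPM in control and 18.9 ± 15.8 in OO. In OO against control 3 of the 7 could be tested, 3 were positive with a median log2 fold change of 1.79, and 1 was called, *PLIN1*, which is also the droplet protein named above. In OO + PFA against PFA the same 3 were positive (median 1.09), with 0 called by edgeR and 1 at an unadjusted p under 0.05, and the defining markers *ADIPOQ* and *LEP* did not exceed 3 counts in any liver group. Of the 7 macrophage markers 0 passed with edgeR, 1 had an unadjusted p under 0.05 and 7 were positive in OO against control, with a median log2 fold change of 0.59. Of the 6 hepatic stellate cell markers 6 were positive in OO against control, with a median log2 fold change of 0.35. Of these 1 passed, *COLEC11* (1.08 ± 0.29, adjusted p = 0.0470). In OO + PFA against PFA, the hepatocyte marker *TAT* (1.49 ± 0.25, adjusted p = 0.00165) and the enterocyte marker *APOA4* (4.16 ± 0.89, adjusted p = 0.0162) passed, while *FABP2* and *SI* stayed near 0. Most other markers of these lists went the other way. Of the 7 hepatocyte markers tested, 2 were positive and 5 negative (median log2 fold change -0.24). Of the 3 enterocyte markers tested, 1 was positive and 2 negative (median -0.35). The part of other cell types in the liver values was not tested.

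In the ileum, PFA against control asks for an effect of the additive in the gut. Of the 10 genes, 8 passed the filter on low counts and 0 were called, as were 0% of 14300 genes tested. None of the 8 had an unadjusted p under 0.05, as 401 of the 14300 genes had. DESeq2 called none of the 8 and 4 of all genes. *PLIN2* was at 29.8 ± 2.61 CPM in control and 31.8 ± 4.76 in PFA (n = 5 each), with a log2 fold change of 0.09 (95% interval -0.17 to 0.36). *CIDEB* measured 91.5 ± 7.47 and 78.4 ± 11.7 CPM (-0.22, -0.47 to 0.03), and *ABHD5* 40.5 ± 6.59 and 45.2 ± 6.45 CPM (0.16, -0.15 to 0.47). *PLIN4* spread from 2.09 to 15.5 CPM in control and from 4.76 to 24.3 CPM in PFA, and its highest piglets, pigs 110 and 95, also had the highest summed smooth muscle markers of their groups, 8318 and 9796 CPM. *PNPLA2* spread from 7.83 to 25.1 CPM and from 6.17 to 28.2 CPM (-0.48, -1.43 to 0.47). Its highest ileum of either group, PFA pig 134, was also the highest for *PLIN3* (113 CPM), had the highest GC slope of the ileum libraries (0.37) and the highest summed adipocyte markers (114 CPM, against 15.4 CPM at lowest in the PFA group and 17.1 to 93.7 CPM in control). The part of these in the ileum values was not tested. *PLIN5* reached at most 4 counts and *G0S2* at most 7 counts in any ileum library, so neither was tested there.

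The same 10 piglets allowed a comparison of the tissues. The study reports a lower minimum of RNA quality for liver than for ileum, and library titles differed by tissue. Tissue therefore cannot be told apart from RNA quality or library set. On a common scale of 20 libraries, *CIDEB* and *ABHD5* were higher and *PLIN3* and *MGLL* lower in the liver of control piglets than in the ileum, each without overlap. Over all genes, 69.5% of 14982 were called, 33.1% higher and 36.4% lower, and 26.9% were higher and 29.4% lower without overlap. *PLIN5* and *G0S2* passed the filter on low counts only through the liver, so that their difference is given as a description and no call is counted for them. *PLIN5* had 1806 counts over 5 control livers and 3 counts over the 5 ileum samples of the same piglets. Corrected for library size that is a ratio of 953 with a 95% counting interval of 325 to 4623. *G0S2* had 566 and 21 counts, a ratio of 42.6 (27.6 to 69.4). These intervals cover counting error only. *CIDEB* was at 181, 200, 231, 232 and 234 CPM in liver and at 55.8, 59.2, 62.0, 65.2 and 68.4 CPM in ileum, a log2 difference of 1.80 ± 0.14 (adjusted p = 2.70e-10). *ABHD5* was higher in liver by 1.38 ± 0.20 (adjusted p = 3.71e-06).

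*PLIN3* and *MGLL* were higher in the ileum. *PLIN3* was at 18.7, 20.7, 23.8, 24.5 and 25.6 CPM in liver and at 32.9, 49.8, 50.4, 65.4 and 65.8 CPM in ileum (-1.22 ± 0.19, adjusted p = 1.18e-05). *MGLL* was at 5.35, 5.54, 8.17, 8.52 and 10.5 CPM in liver and at 14.7, 14.9, 21.7, 22.3 and 24.1 CPM in ileum (-1.35 ± 0.27, adjusted p = 1.62e-04). *PLIN2* (-0.06, 95% interval -0.47 to 0.35), *CIDEC* (0.11, -0.43 to 0.66), *PNPLA2* (0.23, -0.65 to 1.11) and *PLIN4* (0.65, -0.34 to 1.64) did not pass. Whether the effect of PFA differed between the tissues was tested as an interaction, in which edgeR called 0 of the 8 genes measurable in both tissues and 0% of all genes. None of the 8 had an unadjusted p under 0.05 in it, as 739 of 14982 genes had, and DESeq2 called none of the 8.

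**Figure D5:**
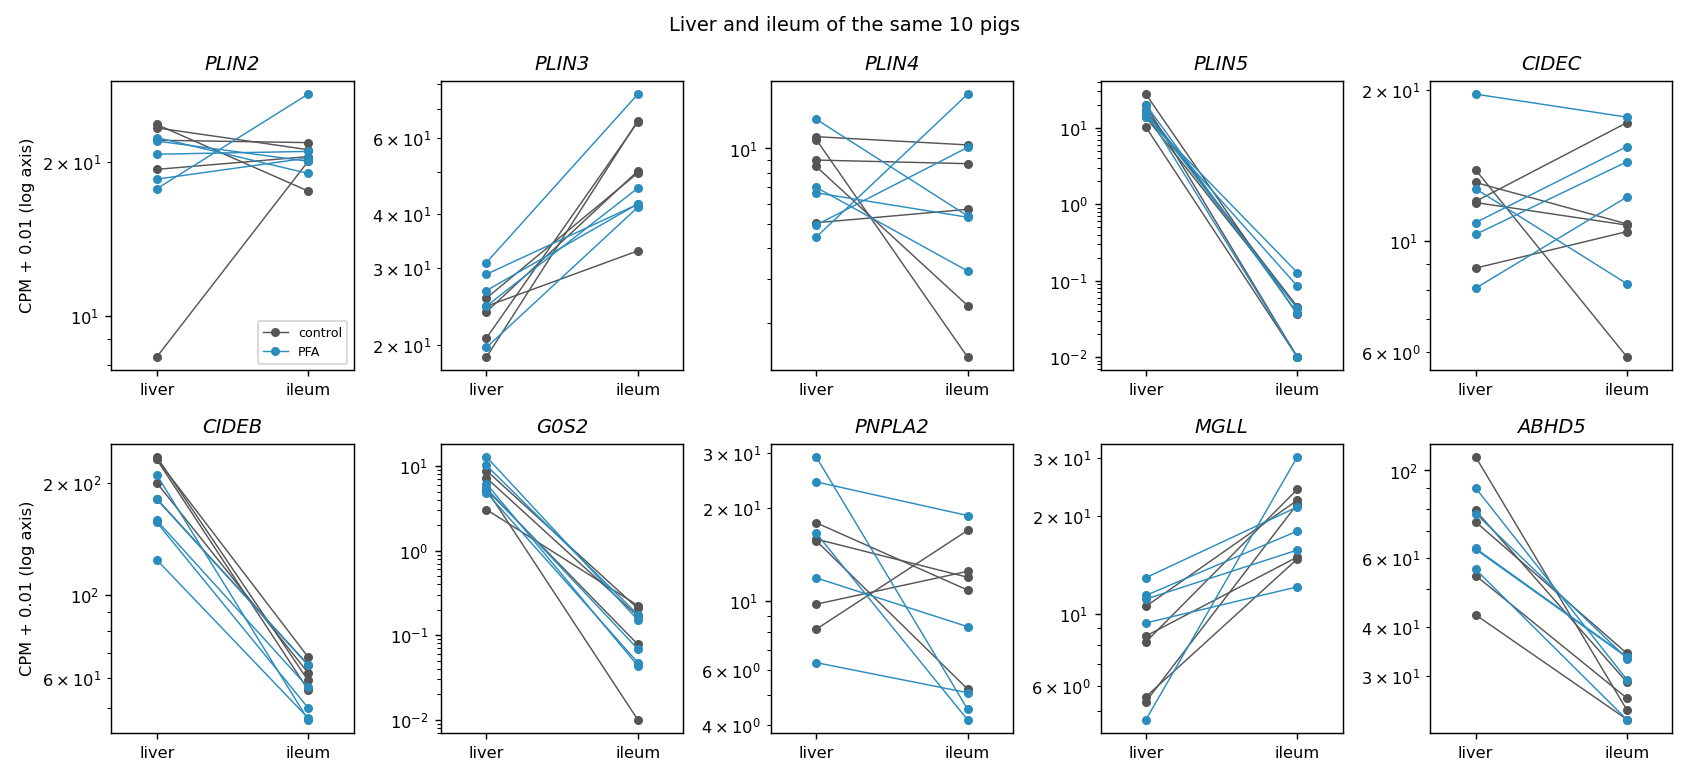
CPM + 0.01 on log axes (a separate axis for each gene) in liver and ileum of the same 10 piglets, a line for each piglet and a colour for each diet. *PLIN5* and *G0S2* drop to near 0 in the ileum of every piglet, *CIDEB* and *ABHD5* are lower there, and *PLIN3* and *MGLL* are higher.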

How the data were processed

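RNA from 24 liver and 10 ileum samples was sequenced as stranded, poly(A)-selected paired-end libraries. Per the labels and the study's methods, the authors used STAR 2.6.1d for alignment (build Sscrofa11.1) and HTSeq for counting. The deposited values are raw counts, and the submitters' processing notes name DESeq2 1.22.2. The annotation release and the strand setting are not given in the sources used here. Rows for reads without a gene (13.5% to 36.7% of each library) were left out. The tables of the series held the same values as the files of single samples.

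Counts were normalised by TMM after edgeR's filter on low counts and tested with edgeR 4.0.16 (quasi-likelihood, two-sided, Benjamini-Hochberg over all genes tested, threshold 0.05 on the adjusted p) in R 4.3.3. The 23 liver libraries were fitted together by diet, the 10 ileum libraries by diet, and the 20 libraries of the 10 piglets with both tissues by tissue and diet. CPM values use TMM-scaled library sizes within each fit, so levels are compared only within a fit. Per-kilobase levels use RefSeq exon lengths. Log2 values for the outlier test used a prior count of 2. The GC correction was a lowess fit (span 0.5) of each library's log2 deviation on gene GC, in genes with a RefSeq GC value (13703 of 25880). The main edgeR fit was tested on simulated data for OO against control, for PFA against control in the ileum and for liver against ileum. The simulated libraries had no differences in GC slope or by title form, so the fit under such differences was not tested. The other comparisons, the GC correction and the alternatives were not tested in this way. Alternatives were DESeq2 1.42.0, its size factors, other filters, all 24 liver libraries, title form as a term or by strata, 2 diets only, and each pig left out. The GC correction of the tissue comparison and the joint GC and title form fit were chosen after seeing the data.

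All 10 genes are named, and other list genes where called in an oil comparison. The genes and lists were chosen with earlier results of these data known, so no list test is given. Pig numbers tie the tissues of 1 animal. Deviations of the 2 tissues of a pig correlated between -0.18 and 0.46 across 14982 genes. Samples are separate animals from 1 pen per diet, so p-values measure the spread between these animals. A smaller number of counts gives less precision, and G0S2, MGLL and PLIN4 have the lowest counts in control livers.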

Additional observations from a re-analysis of the deposited data

Results flagged for a closer look

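Among 59 pairs of a gene and a group, the value of 1 sample stood far from the rest of its group in 2, both in the ileum of PFA piglets, and about 1 in 20 would be marked so by chance. *PLIN2* was 40.2 CPM in pig 138 against 28.4 to 30.7 CPM in the other 4, and *PLIN3* was 113 CPM in pig 134 against 60.8 to 68.3 CPM. The test was Dixon's, on log2 CPM. Pig 134 also had the highest summed adipocyte markers of the PFA ileum samples, 114 CPM, and the part of these in its *PLIN3* level was not tested.

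The liver library of OO + PFA pig 77, left out of every comparison above, held 4 of the 10 genes above the highest control liver when all 24 libraries were scaled together. *G0S2* was 54.2 CPM against at most 6.07 CPM in control livers. *PLIN5* was 43.6 against 18.7, *PNPLA2* 35.6 against 13.6 and *MGLL* 16.2 against 7.04 CPM. *PLIN2*, at 11.8 CPM, lay within the control range of 5.64 to 16.0 CPM, and *ABHD5*, at 23.1 CPM, below the lowest control liver at 29.2 CPM. The GC slope of this library, 0.64, was the highest of all.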

How the results depend on the processing

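The counts of genes called stayed at 0 for both PFA comparisons in the liver, the interaction, the ileum comparison and the tissue by PFA test under each alternative run. For OO against control the 5 calls became 1 within PL titles and 5 to 8 when 1 pig was left out, with 8 without OO pig 74 or 97, when *PLIN3*, *CIDEC* and *PNPLA2* passed too. They were 7 with DESeq2 and with GC correction, 4 in a fit of the 2 diets alone, where *PLIN5* was lost (adjusted p = 0.0852), and 4 within PigLiv titles. For OO + PFA against PFA the 5 calls became 1 within either title form (PL titles hold a single OO + PFA liver, assumed to vary like the others) and 2 to 5 when 1 pig was left out: 2 without the OO + PFA pig with a PL title (*PLIN5* and *G0S2* remained), 3 without OO + PFA pig 79 or PFA pig 107. With all 24 libraries *MGLL* passed (adjusted p = 0.0454) and *ABHD5* did not (adjusted p = 0.0748), and with title form as a term *PNPLA2* did not (adjusted p = 0.0515). Each title form holds 4 to 7 livers of the 2 diets compared, and its fit used the livers of all 4 diets with that title. The cause of the other changes was not tested. Over all genes, the 375 calls for OO against control became 1079 with DESeq2, 810 with GC correction, 922 with GC correction and title form, 224 with all 24 libraries, 194 in the fit of 2 diets, and 114 and 8 within PigLiv and PL titles. The 218 calls for OO + PFA against PFA became 697 with DESeq2, 1225 with all 24 libraries, 963 in the fit of 2 diets, and 30 and 35 within titles. Across the 4 diets the 6 calls ranged from 5 to 9. With pig as a replicate block, the tissue comparison kept the calls of *CIDEB*, *ABHD5*, *PLIN3* and *MGLL*. Without the block 69.5% of all genes were called. *PLIN5* and *G0S2* entered only through the liver, so no call is counted for them. A filter of at least 10 counts in every library leaves the same 4 genes.

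Of 1556 recomputed fold changes of single genes, 1516 kept their side of the threshold, 28 lost a call and 12 gained one. Sign changed in 66, all without a call before or after, at values from -0.34 to 0.57. The number of read pairs limits *PLIN5* and *G0S2* in the ileum, where no effect of PFA could be tested.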
